A study of Mus musculus with 7 samples.

Results

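Antisense genes are loci whose RNA is transcribed from the strand opposite to another gene. The 69 genes described here are all those of gene type antisense in the deposited table that had at least 20 counts in every one of 7 libraries, with Kcnq1ot1 and Sox2ot left out. They are 69 of 2959 antisense genes, of which 2396 had a count in any library, and of 55536 genes in all. The count minimum is a measured value, so the levels of these genes are given as a description, and it also removes genes that fell in a shallow library. Total counts were shallow, at 4192021 to 6580814, in 2 of 3 mutant libraries and 1 of 4 wild-type libraries, and reached 12896134 to 16064644 in the others.

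RNA came from the brain of C57BL/6 neonates (postnatal day 0). The wild-type group held 2 males and 2 females. Their Setd2SRI/wt littermates, 1 male and 2 females, carried R2483H in the SRI domain on a single copy of Setd2, so every animal kept a wild-type copy. Litters are not identified in the labels. Markers of neurons, astrocytes and progenitors, oligodendrocyte lineage and microglia were all detected, and summed neuronal markers stood at 4257 to 4773 CPM, counts per 1e6 counts, in wild type and 4439 to 5181 in Setd2SRI/wt.

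SETD2 is the methyltransferase that places the third methyl group on lysine 36 of histone H3 while RNA polymerase II transcribes a gene, and its SRI domain binds the phosphorylated tail of the polymerase. In yeast, the matching enzyme Set2 marks gene bodies so that nucleosomes stay deacetylated, and without it transcription starts at cryptic sites inside genes, in the sense and antisense directions. Antisense RNAs of the brain include Dlx6os1, from the interneuron locus of Dlx5 and Dlx6, and Tug1, a widely expressed long noncoding RNA that starts back to back with Morc2a.

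What these counts can measure is set by how reads were assigned. The libraries were made with a stranded kit, but the deposited counts behaved as if strand had not been used. Of 240 genes whose exon bases all lie under exons of the opposite strand, 0 had a count in any library. Among 35978 genes with no such overlap, 61.6% had a count, and the share was 33.6% of 110 genes covered above 90% but not wholly. Reads that touched exons of both strands were therefore left out, and a count in an antisense gene comes from its exon bases outside other genes' exons. Along those bases a read from the sense gene's intron cannot be told apart from an antisense read.

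**Figure D1:**
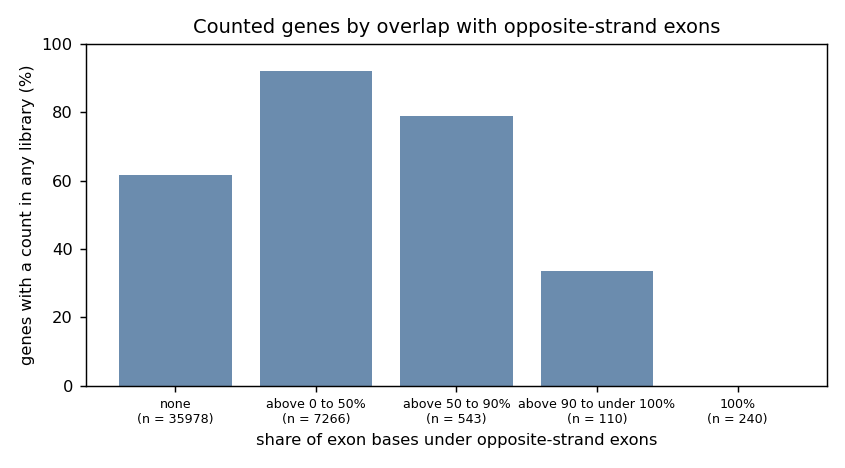
Share of genes with a count in any library (percent, vertical axis) by the share of their exon bases that lie under exons of the opposite strand (horizontal axis, with the number of genes). The share is 61.6% without such overlap, 92.1% for genes covered up to 50%, 33.6% just under full coverage and 0.0% for the 240 genes fully covered.

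For the 69 genes a median of 88.4% of the exon bases was countable in this sense, with a range of 47.9% to 100.0%. Countable length was 314 to 8603 bp, with a median of 2398 bp. In 23 genes at least 90% of the countable bases lie in an intron of an opposite-strand gene, in 20 genes under 10% do, and 26 genes are mixed. Exon bases under an opposite-strand exon occurred in 55 of the 69, and 13 had a single exon block. Exon bases shared with another gene of the same strand were present in Tug1, Dlx6os1, Tmem147os and Gm6277, whose counts are uncertain for that reason too. The symbols Dlx6os1, Tmem147os and Gm5089 each stand on 2 rows of the deposited counts. Values given here are those of the row among the 69, which may hold only part of the locus.

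Each gene was given as partner the protein-coding gene on the other strand with the largest overlap of spans, or else the nearest one back to back. By position relative to the partner, 32 genes start inside it, over 1000 bases past its start, and 24 start downstream of its end and run back into it. The remaining class is divergent, with 12 genes that start within 1000 bases of the partner's start and run the other way. Fbxl12os had no protein-coding partner by this rule. An internal start is the position that cryptic antisense transcription inside a gene body would have, and a divergent start belongs to the upstream side of an ordinary promoter. The internal class also holds starts not far past the partner's start, such as Panct2 at 1045 bases and Gm10516 at 1166. Sp3os counts as internal by its partner Gm11084, which had 0.373 CPM in wild type.

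Promoter sequence was available in RefSeq (build GRCm38.p6, 250 bases before to 50 after the start) for 31 of the 69 by symbol. CpG-rich windows, with GC above 50% and an observed to expected CG ratio above 0.6, made up 16 of the 31 (51.6%), against 33.9% of 27025 symbols. They were 5 of 6 divergent genes (83.3%), 6 of 11 with a downstream start (54.5%) and 5 of 14 with an internal start (35.7%). The windows of Tug1 and of its divergent partner Morc2a, an ATPase gene of heterochromatin silencing, show the CpG-rich kind. Those of A830036E02Rik and Gm26782 are given because these antisense genes had the smallest p for genotype in each direction. Letters run 5′ to 3′ on the strand of the gene, and every CG is in capitals. RefSeq starts can differ from the GENCODE starts that the counts use. They did for Tug1 and A830036E02Rik, whose windows lie inside the counted genes, with GENCODE starts at 3649673 and 99416956.
Tug1, chr11:3648765-3649064, minus strand: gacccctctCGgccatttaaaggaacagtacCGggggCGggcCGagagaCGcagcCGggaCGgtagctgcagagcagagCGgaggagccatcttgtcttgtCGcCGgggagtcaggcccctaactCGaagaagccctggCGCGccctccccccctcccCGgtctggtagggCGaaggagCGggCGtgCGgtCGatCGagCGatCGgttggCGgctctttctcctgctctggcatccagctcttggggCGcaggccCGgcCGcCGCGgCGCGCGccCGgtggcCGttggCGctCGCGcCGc
Morc2a, chr11:3649187-3649486, plus strand: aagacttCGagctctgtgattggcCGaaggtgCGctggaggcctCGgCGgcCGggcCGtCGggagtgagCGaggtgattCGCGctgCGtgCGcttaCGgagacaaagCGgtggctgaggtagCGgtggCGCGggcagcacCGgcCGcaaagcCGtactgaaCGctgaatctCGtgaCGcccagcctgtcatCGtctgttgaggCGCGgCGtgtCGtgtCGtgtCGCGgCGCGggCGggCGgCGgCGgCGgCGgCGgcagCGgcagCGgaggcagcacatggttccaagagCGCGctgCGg
A830036E02Rik, chr11:99416993-99417292, plus strand: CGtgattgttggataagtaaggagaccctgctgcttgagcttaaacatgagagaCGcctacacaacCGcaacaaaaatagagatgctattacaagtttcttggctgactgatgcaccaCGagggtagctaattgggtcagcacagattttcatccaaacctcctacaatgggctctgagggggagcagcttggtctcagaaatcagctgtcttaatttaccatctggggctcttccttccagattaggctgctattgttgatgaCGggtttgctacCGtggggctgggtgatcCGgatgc
Gm26782, chr14:50870046-50870345, plus strand: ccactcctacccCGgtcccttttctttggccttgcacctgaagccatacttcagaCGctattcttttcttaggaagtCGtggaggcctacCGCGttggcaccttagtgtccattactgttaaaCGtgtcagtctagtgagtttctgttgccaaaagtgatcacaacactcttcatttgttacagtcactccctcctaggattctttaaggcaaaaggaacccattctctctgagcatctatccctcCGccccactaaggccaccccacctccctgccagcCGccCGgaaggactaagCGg

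The Tug1 window holds 37 CG pairs at 71.3% GC, and that of Morc2a 46 at 70.3%. Those of A830036E02Rik and Gm26782 hold 7 at 48.7% and 10 at 51.7%, and neither is CpG-rich by the rule. A median of 17 CG pairs was found over the 31 windows and of 7 over all symbols.

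Levels of the 69 genes were low and uneven. The mean CPM over 7 libraries ran from 3.75 to 173, with a median of 6.60, 46 genes lay under 10 and 11 reached 20. Together they took 0.104% to 0.109% of counts in wild type and 0.0951% to 0.119% in Setd2SRI/wt. The 3 most abundant, B230334C09Rik, Tug1 and 4933431E20Rik, held 35.3% of the summed CPM. Lowest counts fell in wild-type male 2, the shallowest library, for 58 of the 69. A count of 20 corresponds to 1.24 CPM in the deepest library and 4.77 CPM in the shallowest, so the rule asked for about the shallow library's level.

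At the edge of the rule, 8 antisense genes had a minimum of exactly 20 counts, 9430041J12Rik, A030001D20Rik and Gm16638 among them, and 2 had a minimum of 19. Just outside were 1700034H15Rik and Gm38336 with 19 counts and 1500015A07Rik with 18. Several antisense RNAs with a literature of their own were not well measured. Emx2os, antisense at the cortical homeobox gene Emx2, had a minimum of 15 counts and Airn, the imprinted antisense RNA of Igf2r, 5. Zeb2os had a minimum of 4, Tsix, the antisense RNA of Xist, 1, and Wt1os was at 0 in every library.

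B230334C09Rik (chromosome 3, 158067186 to 158076112, GRCm38, minus strand) had the highest level, also per countable kilobase at 22.7 CPM per kb. Its CPM was 160, 161, 177 and 156 in wild-type males 1 and 2 and females 1 and 2, and 198, 135 and 225 in the Setd2SRI/wt male and females 1 and 2. The mutant libraries thus held both its lowest and its highest value. Its partner is Lrrc40, downstream of which it starts, and its log2 fold change for genotype was 0.19 ± 0.14 (SE; adjusted p = 0.774, edgeR). Next per countable kilobase came Gm29237, with its countable bases in introns of the spectrin gene Sptbn1, at 20.4 CPM per kb over its short countable length. Its CPM was 5.46 to 7.46 in wild type and 3.99 to 8.61 in Setd2SRI/wt, beside 1092 and 1059 for Sptbn1 itself. The part of Sptbn1 intron reads in its count was not tested.

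Tug1 (chromosome 11, 3639785 to 3649673, minus strand) was among the steadiest. CPM was 111, 114, 122 and 117 in the wild-type libraries and 104, 109 and 111 in Setd2SRI/wt. The groups met at 111 CPM, with means of 116 ± 4.51 (SD, n = 4) and 108 ± 3.88 (n = 3), a log2 fold change of -0.11 ± 0.09 (adjusted p = 0.823, edgeR). Morc2a stood at 54.0 and 56.4 CPM. A similarly even gene was 4933431E20Rik, antisense at Eps8l3, which itself was nearly silent here. Its CPM was 102, 93.3, 91.4 and 90.2 in wild type and 104, 95.7 and 102 in Setd2SRI/wt, so the groups overlapped.

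Separate interneuron loci of the Dlx family gave 2 of the 69, Dlx6os1 on chromosome 6 and Dlx1as on chromosome 2. Dlx6os1 (chromosome 6, 6820189 to 6871592, minus strand) includes the Evf transcripts, which in mice act on Dlx5 and Dlx6. Its symbol stands on 2 rows of the deposited counts, and only the row at this position is described. Its CPM was 33.1, 41.9, 28.2 and 23.4 in wild type and 25.3, 25.6 and 30.4 in Setd2SRI/wt. The mutant values lay inside the wild-type range, and the 2 wild-type males were highest. Dlx1as, the antisense RNA of the interneuron gene Dlx1, had 5.07 ± 0.521 CPM (n = 4) and 4.74 ± 0.386 (n = 3). Dlx1 itself stood at 44.6 ± 8.62 and 36.2 ± 1.95 CPM (log2 fold change -0.24, adjusted p = 0.673, edgeR).

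Whether heterozygosity for the SRI change altered antisense RNA was asked with edgeR's quasi-likelihood test, with genotype and sex in the model, over the 17260 genes that passed the expression filter. All 69 passed it. None of the 69 was called at an adjusted p under 0.05, against 3 of 17260 genes (0.0174%) and 0 of 592 antisense genes (0.0%). The smallest adjusted p was 0.257. At an unadjusted p under 0.05 there were 6 of the 69 (8.70%), against 8.95% of all genes tested and 5.74% of antisense genes, so the share was that of all genes. Of the 6, 5 had higher values in Setd2SRI/wt (3.84% of all genes, 4.39% of antisense genes) and 1 lower ones (5.11% and 1.35%). DESeq2 had 0 called and 3 at an unadjusted p under 0.05 (6.54% of all genes), and limma-voom 0 and 6 (8.55%).

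Fitted values leaned toward higher levels in Setd2SRI/wt, in 47 of the 69 (68.1%), against 51.4% of all genes tested and 57.4% of antisense genes tested. The number was 39 without Setd2SRI/wt female 2, 41 without the mutant male and 40 in females alone. The median log2 fold change was 0.11, with quartiles at -0.04 and 0.24 and a range from -0.48 to 0.55. Leaving out 1 library moved that median between 0.036 and 0.161, lowest without Setd2SRI/wt female 2, and it was 0.050 without the mutant male. Over all genes tested it was 0.01 and over the 523 tested antisense genes outside the 69 it was 0.08. Other noncoding classes had medians of 0.10 for lincRNA and 0.07 for processed transcripts, while sense-intronic genes had 0.00 (32 of 59 higher), as did protein-coding genes. The direction was not tested over the list, since its genes were chosen by their counts in these libraries. Shallow libraries were also more frequent among the mutants, and the part of depth in this lean was not tested. Bulk RNA cannot tell fewer cells of a type from less RNA per cell.

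**Figure D2:**
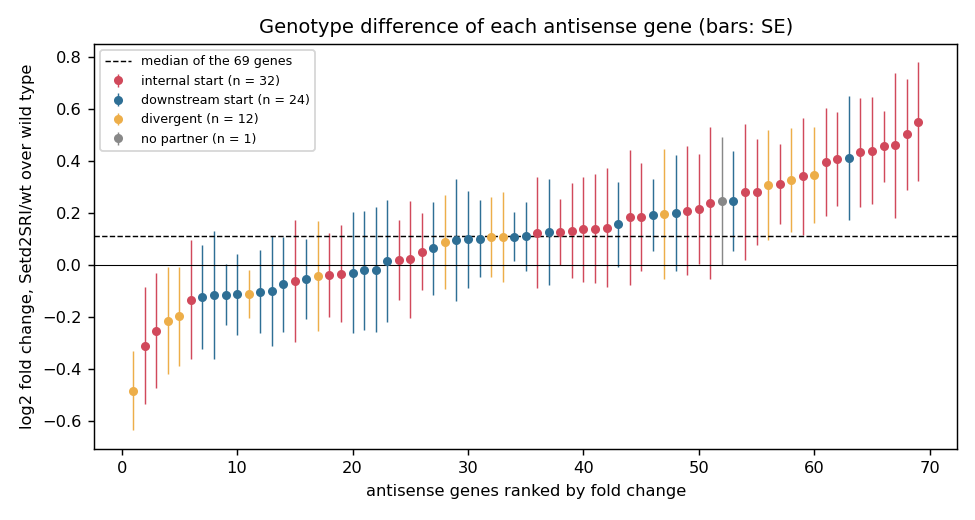
Log2 fold change of Setd2SRI/wt over wild type (vertical axis) for the 69 antisense genes in rank order (horizontal axis), coloured by position relative to the partner, with bars for the SE from edgeR. Values run from -0.48 to 0.55 around a median of 0.11 (dashed), with AC109619.1 highest and Gm26782 lowest.

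A830036E02Rik (chromosome 11, 99416956 to 99425497, plus strand) had the smallest p. It starts inside Krt12, a keratin gene known from the cornea, which read only 5.32 CPM in wild type and 7.08 in Setd2SRI/wt. Its CPM was 52.1, 58.8, 47.9 and 49.2 in wild-type males 1 and 2 and females 1 and 2, and 80.0, 48.8 and 78.5 in the Setd2SRI/wt male and females 1 and 2. Both high values were mutant, while Setd2SRI/wt female 1 lay among the wild-type libraries. The means were 52.0 ± 4.85 (n = 4) and 69.1 ± 17.6 (n = 3), and the log2 fold change was 0.46 ± 0.14 (adjusted p = 0.257, edgeR; range over 16 alternatives 0.0254 to 1.00). Setd2SRI/wt female 1 was 1 of 2 libraries with pituitary transcripts. Without those 2 libraries, a choice made after seeing the data, the log2 fold change was 0.62 at an adjusted p of 0.0254 (edgeR), which passes. Without Setd2SRI/wt female 1 alone the adjusted p was 0.0516 (edgeR), and without the Setd2SRI/wt male alone it was 0.923 (edgeR). Without Setd2SRI/wt female 2 alone the log2 fold change was 0.27.

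The only gene under an unadjusted p of 0.05 in the other direction was Gm26782 (chromosome 14, 50870324 to 50880603, plus strand). It is divergent from Tep1, a gene of the vault particle and telomerase complexes. Its CPM was 18.7, 19.3, 19.7 and 26.3 in wild type and 12.3, 15.2 and 18.97 in Setd2SRI/wt. Setd2SRI/wt female 2 lay inside the wild-type range, so the groups overlapped, at means of 21.01 ± 3.57 (n = 4) and 15.5 ± 3.36 (n = 3). The log2 fold change was -0.48 ± 0.15 (adjusted p = 0.302, edgeR; range over 16 alternatives 0.106 to 1.00). Tep1 had a value of -0.22.

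The other 4 at an unadjusted p under 0.05, all with higher means in Setd2SRI/wt, start inside their partners. AC109619.1, wholly in introns of Macrod1, an ADP-ribosylhydrolase gene, had 4.08, 4.996, 4.87 and 5.17 CPM in wild type and 8.24, 8.28 and 4.98 in Setd2SRI/wt. Setd2SRI/wt female 2 was within the wild-type range and the other mutants above it (log2 fold change 0.55 ± 0.23, adjusted p = 0.470, edgeR). Gm30177, in an intron of the neuritin gene Nrn1, had 4.39, 5.95, 4.19 and 4.91 CPM against 8.61, 5.21 and 6.08. The mutant male stood clear of the rest, and the fold change of 0.50 came with one of 0.29 for Nrn1.

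Gm6277 starts just inside Cables1, which encodes a cyclin-dependent kinase adaptor, and overlaps it by 1650 bp. It had a mean of 4.95 ± 0.513 CPM (n = 4) in wild type and 6.64 ± 1.29 (n = 3) in Setd2SRI/wt. For 4732440D04Rik, whose countable bases lie in introns of the autophagy gene Rb1cc1, CPM was 6.28, 8.09, 7.75 and 6.81 in wild type and 11.0, 8.13 and 9.25 in Setd2SRI/wt. Every mutant value was above every wild-type value, by a narrow margin for Setd2SRI/wt female 1. Its log2 fold change was 0.41 (adjusted p = 0.529, edgeR).

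Groups did not overlap in 4 of the 69, all with higher mutant values (5.80%), and in 0 with lower ones. In all genes tested the shares were 3.83% and 4.08%, and in antisense genes 4.73% and 2.70%. Besides 4732440D04Rik these were Sp3os, 1600020E01Rik and Gm44210. Sp3os, beside the transcription factor gene Sp3, had 4.14, 4.76, 3.9998 and 4.78 CPM in wild type and 6.23, 4.91 and 6.40 in Setd2SRI/wt. The female 1 mutant was again the nearest to wild type, and Sp3 had a fold change of -0.07. In 1600020E01Rik, divergent from the RNA-binding protein gene Pcbp1, wild type ran from 5.23 to 7.40 CPM and Setd2SRI/wt from 8.13 to 9.16. Gm44210, divergent from Efcc1, had 4.39 to 4.76 CPM against 5.50 to 5.83, with a fold change of 0.33 (adjusted p = 0.711, edgeR). Its counts were 20 in wild-type male 2 and 30 in the Setd2SRI/wt male, so counting error limits how far the narrow ranges can be read. None of the 4 passed the adjusted threshold.

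Among the genes named for the smallest p in the higher direction, A830082K12Rik, beside the cortical patterning gene Nr2f1, had a difference of the same size as its neighbour. It stood at 18.3 and 21.7 CPM in wild type and Setd2SRI/wt (log2 fold change 0.31), and Nr2f1 at 66.2 and 81.1 (0.31, adjusted p = 0.332, edgeR). Panct2, named as a pluripotency-associated transcript and lying at Slco4c1, had 5.15 and 6.42 CPM (0.40). Gm5089, at the mitochondrial lyase gene Clybl, had 4.76 and 6.202 CPM (0.41). All 3 had overlapping groups.

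Lower values in Setd2SRI/wt were small beyond Gm26782. Gm26703, at the synaptic glycoprotein gene Sparcl1, had 8.63 and 7.23 CPM (-0.31), where wild-type female 2 alone stood at 12.5. Sparcl1 itself was abundant, at 2515 and 2265 CPM. Gm48796, with its countable bases in introns of the junction gene Jam3, had a fold change of -0.25, AC165962.1 at Btbd9 -0.21 and Gm37305 at the cyclin gene Ccnl1 -0.20. Adjusted p was between 0.774 and 0.857 for these 4 (edgeR). Rab10os, antisense to the small GTPase gene Rab10, was more abundant at 39.8 and 37.6 CPM (-0.11), and D030047H15Rik, at the chloride channel gene Ttyh1, stood at 14.8 and 13.6 (-0.10). Trmt61b, which the table types as antisense although the symbol names a tRNA methyltransferase gene, had 6.60 and 5.98 CPM (-0.12).

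**Figure D3:**
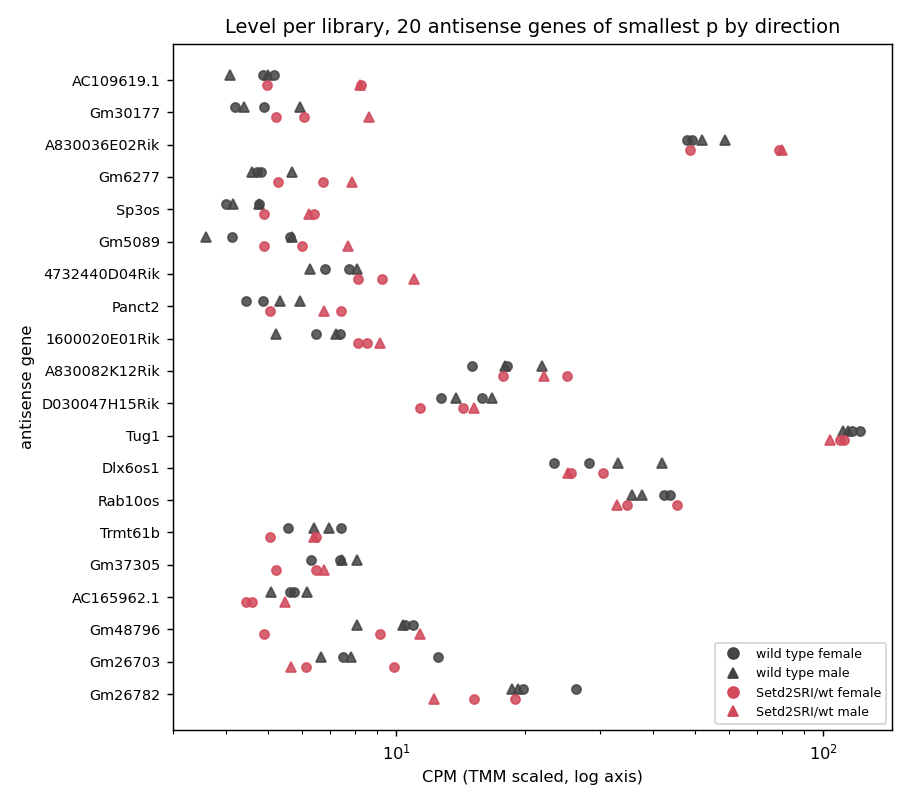
CPM on a log axis (horizontal) for the 10 antisense genes of smallest p in each direction (vertical axis), with wild-type libraries in grey, Setd2SRI/wt in red, females as circles and males as triangles. The mutant points spread more than the wild-type points in A830036E02Rik (48.8 to 80.0), and only 4732440D04Rik, Sp3os and 1600020E01Rik of those drawn have groups that do not overlap.

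Antisense genes at well-known brain genes had no called difference either. Grin1os, whose countable bases lie in introns of the NMDA receptor gene Grin1, had 11.3 ± 2.20 CPM (n = 4) and 13.5 ± 3.91 (n = 3), with Grin1 at 312 and 329. Gm10791, in introns of the amyloid precursor gene App, had 4.57 and 4.01 CPM beside 1708 and 1686 for App. Gm16536, with its countable bases in introns of the secretase gene Bace1, had 12.3 and 12.5 CPM. Srrm4os, antisense to a neuronal splicing regulator, had 5.99 and 5.68, and Gt(ROSA)26Sor, the locus widely used for transgenes, 9.20 and 9.82. Sorbs2os had 6.07 and 7.70 CPM, with its mutant values spanning 4.75 to 9.89.

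By position, 26 of the 32 internal starts were higher in Setd2SRI/wt, the median log2 fold change was 0.18, and 5 (15.6%) had an unadjusted p under 0.05, against 5.14% of all tested antisense genes with an internal start and 8.95% of all genes. Downstream starts had 13 of 24 higher with a median of 0.04 and 0 under that p, against 5.03% of their class. Divergent genes had 7 of 12 higher with a median of 0.10 and 1 under that p (8.33%), against 7.08% of their class. Over all tested antisense genes the classes lay closer together, with 180 of 311 internal starts higher and a median of 0.10, against 0.06 over 159 downstream starts and 0.11 over 113 divergent genes. The difference between classes was not tested, and the internal class includes starts close to the partner's start, that of Gm6277 among the 5. By the place of the countable bases, the median was 0.14 for the 23 genes in opposite-strand introns (16 higher), 0.11 for the 26 mixed genes (18 higher) and 0.11 for the 20 outside (13 higher).

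Partners did not lean either way. The 69 had 67 distinct partners, and 64 of them were tested, with 32 higher, 32 lower, a median log2 fold change of 0.01 and 0 called by edgeR, and 5 (7.81%) at an unadjusted p under 0.05, against 8.95% of all genes. The antisense gene and its partner had the same sign in 33 of 65 pairs. Across genes, levels per kilobase of antisense gene and partner had a Spearman rho of 0.59 over the 23 intronic genes and 0.03 over the 20 outside. Genes are not independent replicates, and an intronic count can hold the partner's own unspliced reads.

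The log2 ratio of antisense gene to partner was tested with limma over 557 antisense pairs of the series. Called were 0 of 557 (0.0%), and 30 (5.39%) had an unadjusted p under 0.05. Of the 65 pairs among the 69 genes, 0 were called and 4 had such a p, and the median difference was 0.08, as over all pairs. Gm6277 against Cables1 had the smallest p. Cables1 stood at 19.7 and 14.6 CPM (-0.41), opposite to Gm6277, and the ratio differed by 0.83 ± 0.23 (adjusted p = 0.463, limma). The others were AC109619.1 against Macrod1 (0.59), 4732440D04Rik against Rb1cc1 (0.52) and Dlx6os1 against Dlx6 (-0.58). Dlx6, a homeobox gene of forebrain interneurons, stood at 8.13 ± 0.544 CPM (n = 4) and 11.1 ± 2.95 (n = 3), with a log2 fold change of 0.43 ± 0.20 (adjusted p = 0.547, edgeR).

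**Figure D4:**
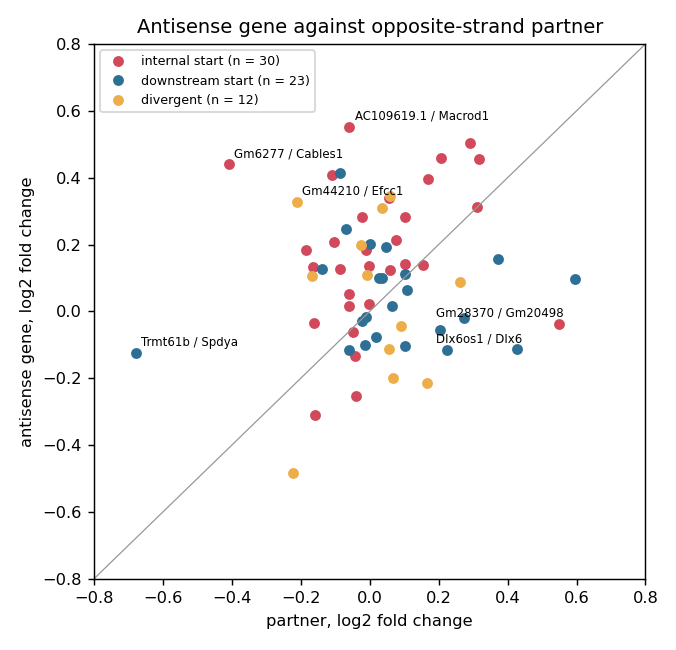
Log2 fold change of Setd2SRI/wt over wild type for 65 antisense genes (vertical axis) against that of the opposite-strand partner (horizontal axis), coloured by position, with the line of equal values. Points scatter around 0 on both axes, 33 of 65 with the same sign, and the 6 pairs farthest apart are labelled.

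The spread between mutant brains was wider than the mean difference. Summed CPM of the 69 was 1053, 1078, 1042 and 1055 in wild-type males 1 and 2 and females 1 and 2. In the Setd2SRI/wt male and females 1 and 2 it was 1192, 960 and 1209. So 2 mutants lay above every wild-type library and 1 below, with means of 1057 ± 15.1 (SD, n = 4) and 1120 ± 139 (n = 3). The intronic genes spread most, with a median log2 deviation from the mean of all libraries of 0.28 in the mutant male and -0.31 in mutant female 1. For genes outside introns these were 0.15 and -0.13.

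The Setd2SRI/wt male had the highest value of 26 of the 69 genes (37.7%), against 18.9% of all genes tested, and mutant female 1 the lowest of 24 (34.8%), against 17.2%. Libraries with pituitary hormone transcripts were wild-type female 2 (27.5 CPM for Gh, Prl and Pomc together) and Setd2SRI/wt female 1 (11.5). The summed level of 10 pituitary markers was 5.02 to 32.1 CPM in wild type and 4.03 to 15.6 in Setd2SRI/wt, all 10 detected. Markers of monoamine neurons did not overlap between genotypes, at 55.5 to 156 CPM in wild type and 24.6 to 45.4 in Setd2SRI/wt over 5 genes, all detected, and their part in the values of the 69 was not tested. Choroid plexus markers were lowest in wild-type male 1, at 189 CPM. Hindbrain markers stood at 17.1 CPM in that library alone. They were at 0.0 to 0.393 CPM in the other wild-type libraries and 0.0 to 0.158 in Setd2SRI/wt. Leaving out the 2 libraries with pituitary transcripts was chosen after seeing the data. Without them 56 of the 69 had higher values in Setd2SRI/wt, with a median of 0.23. Then 11 genes were under an unadjusted p of 0.05, against 11.7% of all genes. Without mutant female 1 there were 13 such genes (10% of all genes). Without the mutant male there were 2 (5.32%), and without wild-type male 1 also 2 (6.39%). In females alone there were 0 (4.14%), or 1, Gm48796, with a block for replicate number (4.46%).

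**Figure D5:**
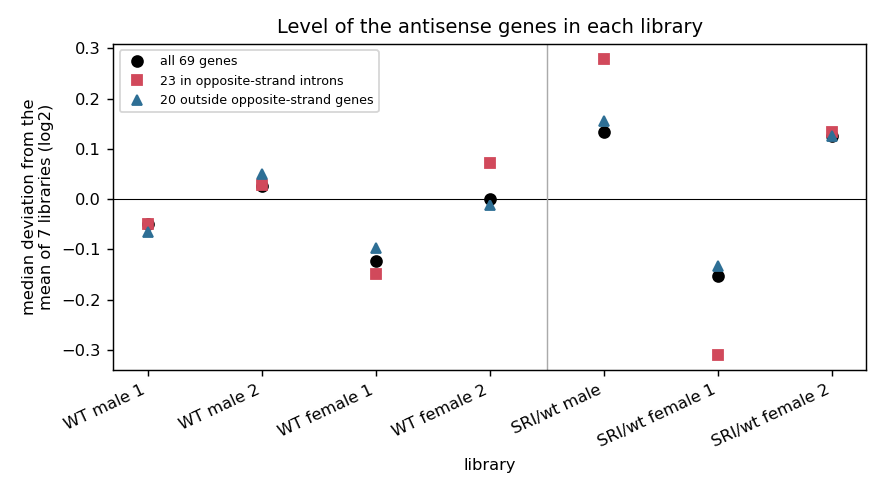
Median log2 deviation from the mean of the 7 libraries (vertical axis) in each library (horizontal axis) for all 69 antisense genes (circles), the 23 in opposite-strand introns (squares) and the 20 outside (triangles). WT stands for wild type and SRI/wt for Setd2SRI/wt. The mutant male is high (0.28 for intronic genes) and mutant female 1 low (-0.31), with wild-type libraries between.

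Sex gave no called gene among the 69 with edgeR, against 8 of 17260 (0.0463%), and 2 genes at an unadjusted p under 0.05, against 4.72% of all. These were Gm26782, lower in males (-0.35, adjusted p = 0.999, edgeR), and Rab10os, with -0.26. Values were higher in males for 56 of the 69, with a median of 0.10, against 321 of the 592 tested antisense genes and a median of 0.03. Males and shallow libraries overlap, since 2 of 3 males were shallow, and the minimum of 20 counts acts through the shallow libraries. The part of depth in this lean was not tested. At a minimum of 50 counts in every library, 18 of 23 antisense genes were higher in males. The genotype by sex product gave 0 called of 18269 genes (0.0%) and of the 69, and 3 of the 69 at an unadjusted p under 0.05, against 3.46%. Smallest was Dlx6os1 (-0.67 ± 0.29, adjusted p = 0.998, edgeR). It rests on a single mutant male.

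Genes that control cryptic and antisense transcription were also read. Of 40 tested genes for histone chaperones, readers of lysine 36 methylation, deacetylases and nuclear RNA decay, 0 were called by edgeR (0.0174% of all). In Setd2SRI/wt 25 were higher and 15 lower, with a median log2 fold change of 0.02, where 51.4% of all genes tested were higher. At an unadjusted p under 0.05 there was 1 of the 40, against 8.95% of all genes tested. Setd2 itself stood at 103.5 ± 6.72 CPM (n = 4) and 96.9 ± 17.9 (n = 3), with a fold change of -0.14 ± 0.11 (adjusted p = 0.798, edgeR). Counts of a missense allele do not check the genotype. The gene with the small p was Srrt, which links capped RNA to nuclear decay, at 134 ± 8.72 and 163 ± 17.2 CPM (0.30 ± 0.10, adjusted p = 0.332, edgeR). Supt6, the histone chaperone that travels with the polymerase, was at -0.10 and Supt16 of the FACT chaperone at -0.17. On the decay side, the exosome nuclease genes Exosc10 and Dis3 were at 0.01 and -0.22, and Xrn2, the termination exonuclease, at -0.13.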

How the data were processed

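The authors deposited raw gene counts, and the submitters' processing notes name FastQC, Trim Galore, HISAT2, featureCounts, edgeR and mm10. Per the labels, 100 ng of RNA was depleted of ribosomal RNA and made into stranded libraries. Versions and the strand setting are not given in the sources used here. All 55536 identifiers matched GENCODE M21, which gave positions and partners, with overlaps from bedtools 2.31.1. The strand check used genes of at least 300 exon bases without same-strand overlap.

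Titles gave each sample's genotype and sex. The column of the mutant male differed slightly from its title and was matched as the only mutant male. The test was edgeR 4.0.16 in R 4.3.3 after filterByExpr and TMM scaling (two-sided, quasi-likelihood, genotype and sex, Benjamini-Hochberg over all genes tested, called under 0.05). CPM are TMM scaled. SE is the absolute log2 fold change over the square root of F. The p-values set the genotype difference against the spread between these animals. Litters are unstated, so the animals may not be independent. Ratios used limma 3.58.1 (log2 CPM, prior count 2). Total counts per library ran from 4192021 to 16064644, and counting error limits genes near 20 counts.

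Named were the 10 genes of smallest p per direction and the 8 highest per kilobase of all exon bases. Also named were 3 on each side of the count minimum, the 6 farthest from their partner and antisense RNAs known from the literature. Of the 8 by level, 2810468N07Rik (9.05 CPM per kb) and 2810001G20Rik (9.41) are not described above. A few others, such as those in Grin1, App and Bace1 or with groups that do not overlap, were chosen after their values were seen. The members and lists were chosen with earlier results of these data known. Alternatives were other scalings, no filter, DESeq2 1.42.0, limma-voom, a model without sex, females alone (with or without a block for replicate number), another count minimum, leaving out each library, and, chosen after seeing the data, leaving out both libraries with pituitary transcripts. The calculations were tested on simulated data. Figures used matplotlib 3.10.9 in Python 3.11.15.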

Additional observations from a re-analysis of the deposited data

Results flagged for a closer look

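Single wild-type libraries stood apart from the other 3 in 3 of the 30 named antisense genes. Gm26782, the gene with the smallest p for a lower level in Setd2SRI/wt, was highest in wild-type female 2, at 26.3 CPM, against 18.7 to 19.7 in the other wild-type brains. Without that library its log2 fold change was -0.37 in place of -0.48. Gm16638 was highest in wild-type male 2, at 5.71 CPM, and Gm28370 was lowest in the same library, at 12.6 CPM. Of all 69 genes, 5 had such a library, and chance alone gives about 1 in 20.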

How the results depend on the processing

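None of the 69 genes was called for genotype, for sex or when any library was left out, except that 1, A830036E02Rik, was called without the filter on low counts (0.44, adjusted p = 0.0390, edgeR) and without both libraries with pituitary transcripts (0.62). Over all genes, where 3 were called, the count was 1 with total counts, 331 without a filter, 64 with DESeq2, 1 with limma-voom, 0 without a sex term, 1 in females only, 80 in females with a replicate block, 57 without the pituitary libraries and 0 to 110 leaving out 1 library. Tested antisense genes called, 0 in the fit reported, were 4 without a filter, 2 with the replicate block, 1 without the pituitary libraries and 0 to 1 leaving out 1 library. The median of the 69 was 0.0482 in females only and 0.0422 there with the replicate block, 0.23 without the pituitary libraries and 0.0362 to 0.161 leaving out 1 library, lowest without Setd2SRI/wt female 2. Antisense to partner ratios called were 0 to 1 leaving out 1 library.

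Of 448 single-gene comparisons over 28 results, 432 kept direction and side of the threshold, 14 reversed and 2 passed it. Dlx6os1 was 0.12 in females only, with and without the block. Without the pituitary libraries Gm26703 was 0.0564, D030047H15Rik 0.0599, Gm48796 0.0194 and Gm28370 0.0675. Leaving out 1 library, Dlx6os1 ran from -0.27 to 0.12, D030047H15Rik from -0.20 to 0.000293, Gm28370 from -0.25 to 0.0355, Trmt61b from -0.23 to 0.00719, Gm48796 from -0.55 to -0.0134, Gm26703 from -0.57 to -0.0683, Rab10os from -0.24 to -0.0246, A830082K12Rik from 0.13 to 0.41, Panct2 from 0.19 to 0.51, AC109619.1 from 0.36 to 0.80, Gm5089 from 0.18 to 0.61, Macrod1 from -0.28 to 0.17 and Gm20498 from -0.13 to 0.94. The causes were not tested. Deviations of same-numbered females correlated at -0.0576, a single value that cannot exclude pairing, and the males allow no such fit. In females the block changed no call among the 69. Counts without strand limit every value, and 3 mutant brains of which 1 is male limit the precision.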
